A study of Mus musculus with 12 samples.

Results

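Organic anion and cation transporters of the kidney were followed as 9 genes, namely Slc22a6, Slc22a8, Slc22a2, Slc22a4, Slc22a12, Slc22a18, Slc47a1, Abcc2 and Abcc4. They were taken by name from a table of 55487 mouse genes counted by RNA sequencing, by a rule that uses no measured value. The set was, however, chosen with earlier results of these data known. Each of the 9 had 603 to 27927 reads in every library and was tested in every comparison. The study asked how loss of ALR, a mitochondrial sulfhydryl oxidase encoded by Gfer, changes acute kidney injury after ischemia/reperfusion (I/R). It used 12 libraries of kidney cortex in 4 groups of 3. ALR flox/flox mice without Cre, labelled WT and Sham, are called Ctrl. ALR flox/flox mice carrying Ggt1-Cre, labelled ALR knockdown and Sham, are called PT-KO. Mice of both kinds that received 22 min of bilateral renal ischemia and 24 h of reperfusion form the groups Ctrl+I/R (injured Ctrl) and PT-KO+I/R (injured PT-KO). The floxed alleles are thus shared by all 4 groups, the background was mixed C57BL/6, and the mice were 6 to 8 weeks old. Ggt1-Cre deletes in proximal tubule cells, whereas the RNA came from whole cortex. Whether each library is from a separate mouse is not stated in the labels, so the p-values measure the spread between these libraries.

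Proximal tubule cells clear drugs, toxins and metabolites from blood into urine by taking them up across the basolateral membrane and passing them out across the apical brush border. Slc22a6 (OAT1) and Slc22a8 (OAT3) take up organic anions in exchange for dicarboxylates, and Slc22a2 (OCT2) takes up organic cations such as metformin and creatinine. At the brush border, Slc47a1 (MATE1) exchanges organic cations for protons, Abcc2 (MRP2) and Abcc4 (MRP4) pump out conjugates and other organic anions with ATP, Slc22a12 (URAT1) takes urate back, and Slc22a4 (OCTN1) carries ergothioneine and organic cations.

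Libraries held 12165089 to 23123693 counts. All of 10 proximal tubule markers were detected in each group, as were 8 markers of the thick limb, distal tubule and collecting duct. Their detection does not tell cortex from whole kidney, so the label kidney cortex was not checked. The targeted gene Gfer was not lower in PT-KO than in Ctrl, with a log2 fold change of 0.13 ± 0.20 (SE) and an adjusted p of 0.761 by edgeR. Nor was it lower in injured PT-KO than in injured Ctrl (0.32 ± 0.13, adjusted p = 0.0723). On I/R it rose in PT-KO (0.64 ± 0.18, adjusted p = 0.00888). A count over the whole gene and the whole cortex does not check a deletion of some exons in a single cell type, so the labels alone name the groups. The libraries of Ctrl stood apart from each other. Ctrl libraries 1 and 2 carried Xist, the transcript of the inactive X chromosome of females, at 19755 counts or more and had 0 counts of 4 Y-linked genes, whereas the 10 other libraries carried the Y-linked genes and at most 11 Xist counts. Ctrl was the only group with both patterns, so comparisons with Ctrl were also fitted, over all 12 libraries, with this difference as a covariate (the sex covariate), which sets the other groups against Ctrl library 3 alone. Levels of several of these transporters are known to differ between male and female mouse kidneys.

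On I/R, 8 of the 9 transporters fell in PT-KO and 3 in Ctrl, where 7 of the 9 log2 fold changes were negative. These counts do not test the difference, which the interaction given below tests gene by gene. In PT-KO+I/R against PT-KO, 0 transporters rose and all but Abcc4 fell at an adjusted p under 0.05 by the quasi-likelihood test of edgeR, where 32.7% of the 15155 genes tested fell, 32.9% rose and 65.5% changed in either direction. The libraries of these groups did not overlap for 8 of 9 transporters and for 70.8% of all genes tested. The median log2 fold change of the 9 was -1.37, beside 0.01 over all genes tested. In Ctrl+I/R against Ctrl, Slc22a8, Slc22a4 and Slc22a18 fell and 0 rose, where 7.97% of 15567 genes fell and 19.4% changed in either direction. The libraries did not overlap for 4 of 9 transporters and for 43.6% of all genes tested, and the median log2 fold change was -0.61 beside -0.01. Scaling by total counts in place of TMM moved the median of all genes by 0.117 and gave 2346 genes higher and 766 lower, where TMM gave 1778 and 1241, and the same 3 transporters passed. With the sex covariate 4 transporters were called, all lower, where 5.96% of 16168 genes were called lower.

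The knockout was compared with Ctrl with and without injury. In PT-KO against Ctrl, 0 of 9 transporters passed, where 0% of 15291 genes did. At an unadjusted p under 0.05 by edgeR there were 2573 genes, 3 of them transporters, and DESeq2 called 458 genes, of which Slc22a2 was the only transporter. The libraries did not overlap for 4 of 9 transporters and for 21% of all genes. In injured PT-KO against injured Ctrl, Slc22a2, Slc22a12 and Slc47a1 were lower and Slc22a4 was higher, where 24.4% of 15281 genes were lower, 22.5% were higher and 46.9% changed in all. The libraries did not overlap for these 4 transporters and for 58.7% of all genes. The median log2 fold change of the 9 was -0.42, beside 0 over all genes. Total counts moved the median of all genes by -0.205, with 1978 genes higher and 5080 lower where TMM gave 3444 and 3725. Slc22a6 (-0.67) and Slc22a18 (-0.63) then passed as lower too, and the 4 calls kept their direction. Without Ctrl+I/R library 2, Slc22a6 (-0.65), Slc22a8 (-0.79) and Slc22a18 (-0.68) also passed as lower, where 25.1% of genes did.

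The knockout by I/R interaction, which is the log2 change on I/R in PT-KO minus that in Ctrl, was tested over all 12 libraries. It was called and negative for Slc22a6, Slc22a2, Slc22a12 and Slc47a1, where 16.4% of 16168 genes were called lower, 14.3% higher and 30.6% in either direction. Those 4 are an anion and a cation uptake carrier of the basolateral membrane, the urate exchanger and the cation exit carrier of the brush border. The median of the 9 was -0.48, beside -0.02 over all genes. Total counts gave 1591 genes higher and 2997 lower, where TMM gave 2305 and 2648, and called 4 transporters, all lower. With the sex covariate 2 were called, both lower, where 11.1% of genes were.

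**Figure D1:**
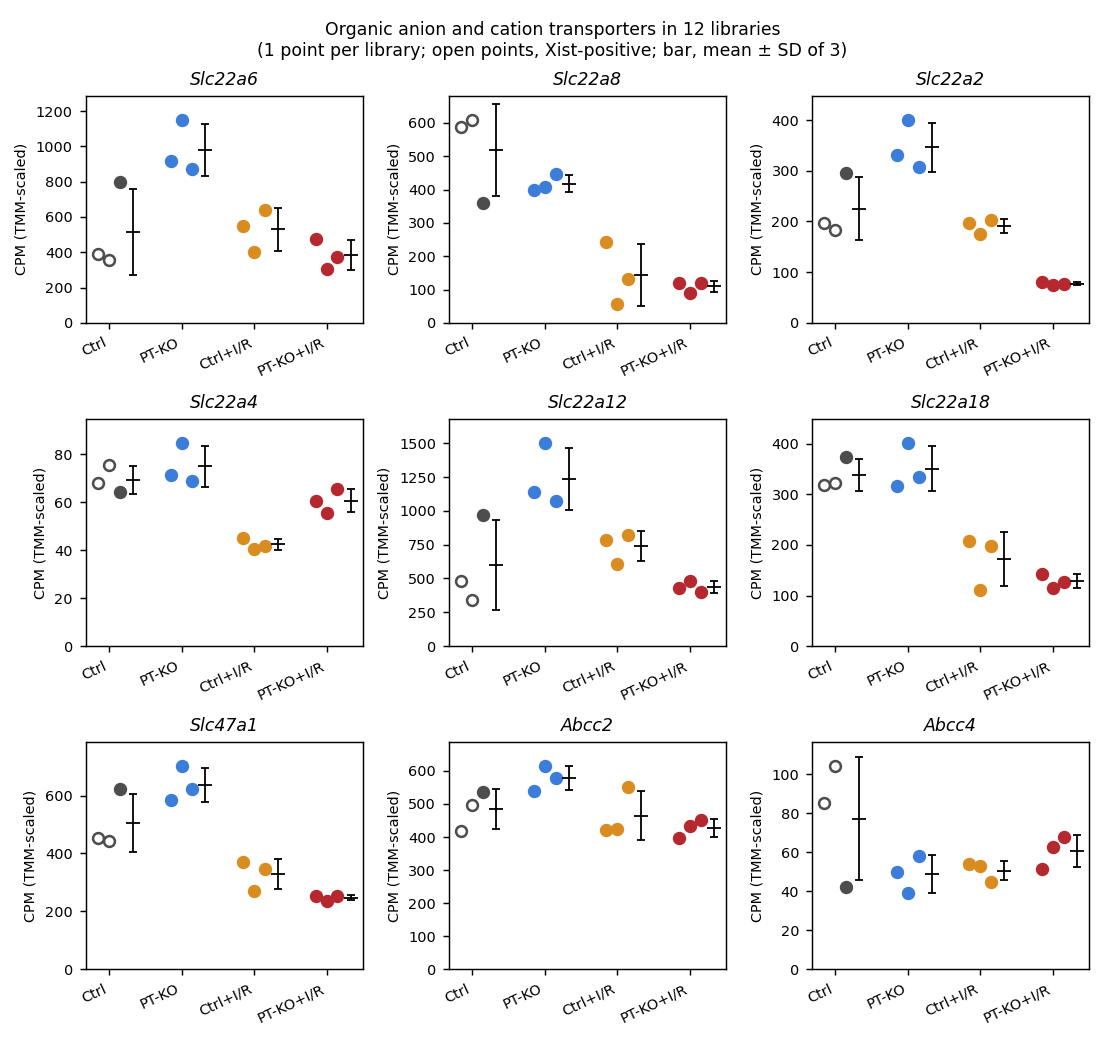
CPM (TMM-scaled) of the 9 transporters in each library of the 4 groups, with open points for the Xist-positive libraries and bars for the mean ± SD of 3 libraries. For Slc22a6 and Slc22a12, Ctrl library 3 (filled) lies far above the open Ctrl points, and for Slc22a2 the PT-KO+I/R libraries, at 75.4 to 81.5, lie below all others.

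Slc22a6 and Slc22a8, the organic anion uptake carriers, are neighbours on chromosome 19 of mm10, at chr19:8618039-8628299 and chr19:8591254-8611835, with 6203 bases between them and the same strand (+). Slc22a6 (ENSMUSG00000024650) stood at 388.9, 356.4 and 797.4 CPM (counts scaled by library size and TMM factors) in Ctrl and at 919, 1150 and 873.4 CPM in PT-KO. After I/R it stood at 550.7, 400.8 and 641.7 CPM in Ctrl and at 477.5, 304.5 and 372.9 CPM in PT-KO. All 3 PT-KO libraries were thus above all others, and the injured groups overlapped each other and Ctrl. I/R lowered Slc22a6 2.56-fold in PT-KO, a log2 fold change of -1.36 ± 0.17 (SE, adjusted p = 5.7e-05). In Ctrl the log2 fold change was 0.05 ± 0.34 (adjusted p = 0.924), and it was -0.59 (adjusted p = 0.166) with the sex covariate. The difference between these responses was -1.39 ± 0.41 (adjusted p = 0.0234). It no longer passed without Ctrl library 1, Ctrl library 2, PT-KO library 2, Ctrl+I/R library 4, PT-KO+I/R library 3 or PT-KO+I/R library 4, with values from -1.37 to -1.19 and adjusted p from 0.0519 to 0.0569. It was -0.76 (adjusted p = 0.139) with the sex covariate. PT-KO exceeded Ctrl by a log2 fold change of 0.93 ± 0.29, which did not pass (adjusted p = 0.219). With the sex covariate it was 0.30 (adjusted p = 1.0). Without Ctrl library 3, which leaves Xist-positive libraries alone in Ctrl, it was 1.39 and passed (adjusted p = 0.000333).

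Slc22a8 (ENSMUSG00000063796) stood at 586.9, 608.9 and 358.7 CPM in Ctrl and at 397.7, 408.0 and 447.1 CPM in PT-KO. After I/R its values were 242.6, 56.91 and 131.5 CPM in Ctrl and 118.3, 90.56 and 119.4 CPM in PT-KO. Every injured library was below every uninjured one, and the Ctrl+I/R libraries differed from each other by the widest fold. Slc22a8 fell 3.57-fold in Ctrl (log2 fold change -1.84 ± 0.49, adjusted p = 0.0407) and 3.84-fold in PT-KO (-1.94 ± 0.12, adjusted p = 6.38e-07). The fall in Ctrl no longer passed without Ctrl library 1 (-1.73), 2 (-1.69) or 3 (-2.04) or Ctrl+I/R library 4 (-1.77), with adjusted p from 0.0508 to 0.118, and was -1.32 (adjusted p = 0.0888) with the sex covariate. The interaction was -0.08 ± 0.53 (adjusted p = 0.923), and -0.61 (adjusted p = 0.521) with the sex covariate, so an unequal response was not detectable with this SE. Injured PT-KO and injured Ctrl overlapped, with a log2 fold change of -0.41 ± 0.44 (adjusted p = 0.47).

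The balance of these neighbours differed between libraries. Per exon length, the ratio of Slc22a6 to Slc22a8 counts was 0.651 and 0.575 in the Xist-positive Ctrl libraries and 2.18 in Ctrl library 3. It was 2.27, 2.77 and 1.92 in PT-KO, 2.23, 6.91 and 4.79 in injured Ctrl and 3.96, 3.3 and 3.07 in injured PT-KO. Slc22a8 counts per length exceeded those of Slc22a6 only in the Xist-positive libraries. Among the other 10 libraries the ratio reached at most 2.77 without injury and at least 2.23 after it.

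**Figure D2:**
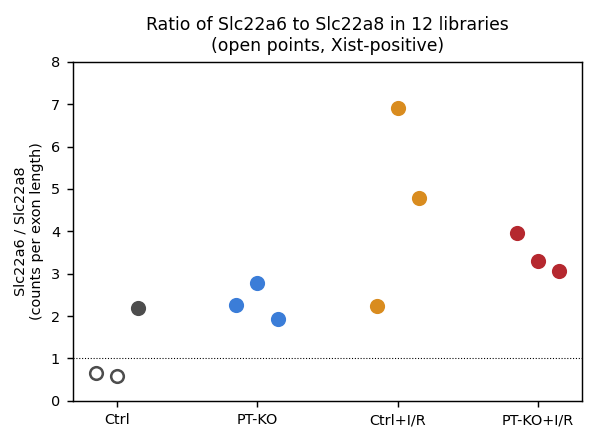
Ratio of Slc22a6 to Slc22a8 counts per exon length in each of the 12 libraries, by group, with open points for the Xist-positive libraries and a dotted line at a ratio of 1. The open points, at 0.651 and 0.575, are the only ones under the line, and Ctrl+I/R spans 2.23 to 6.91.

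The promoters of this pair are shown because the genes are neighbours whose balance differed between libraries. The 120 bases before the start of each gene are from RefSeq (GRCm38.p6), 5′ to 3′ on the gene's strand (+), at chr19:8617876-8617995 and chr19:8593062-8593181. RefSeq places the start of Slc22a8 downstream of the outermost start given here from GENCODE. Capitals mark exact matches, on either strand, to TATAA, the core of the TATA box at which the general transcription machinery can assemble. This motif was chosen with the sequences in view.
Slc22a6: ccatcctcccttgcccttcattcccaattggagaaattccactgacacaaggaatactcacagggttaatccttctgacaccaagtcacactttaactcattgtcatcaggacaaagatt
Slc22a8: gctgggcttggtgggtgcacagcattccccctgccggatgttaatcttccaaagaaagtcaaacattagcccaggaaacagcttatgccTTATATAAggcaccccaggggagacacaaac
The 250 bases before the start were searched for the 8 transporters with an entry, which leaves out Slc47a1. TATAA was found for 1 of them, Slc22a8, where a match on the gene's strand begins 28 bases before the start and overlaps a match on the other strand that begins 31 bases before it. Of 32851 promoters of the same length, 22.8% hold the motif on either strand. A match describes these letters only and is not a measured binding site.

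Slc22a2, the organic cation uptake carrier (ENSMUSG00000040966, chr17:12584132-12628488, strand +), stood at 196.3, 182.9 and 296.3 CPM in Ctrl and at 331.2, 400.4 and 307.6 CPM in PT-KO. Its values after I/R were 196.7, 175.1 and 202.0 CPM in Ctrl and 81.45, 75.35 and 76.09 CPM in PT-KO. The PT-KO+I/R libraries were below all 9 others and differed little among themselves, whereas Ctrl+I/R overlapped Ctrl. Slc22a2 fell 4.48-fold on I/R in PT-KO (log2 fold change -2.16 ± 0.11, adjusted p = 1.78e-07). In Ctrl the log2 fold change was -0.23 ± 0.20 (adjusted p = 0.424). With the sex covariate it was -0.63 and passed (adjusted p = 0.0237), and without Ctrl library 3 it was 0.03. The interaction of -1.92 ± 0.24 (adjusted p = 0.00021) was called in each of the 12 fits that left out 1 library, from -2.17 to -1.79, and was -1.53 (adjusted p = 0.000993) with the sex covariate. After I/R, Slc22a2 was 2.48-fold lower in PT-KO than in Ctrl (log2 fold change -1.31 ± 0.11, adjusted p = 0.000201). Its change on I/R in PT-KO was the largest among the 9.

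Slc47a1, which passes organic cations into the urine (ENSMUSG00000010122, chr11:61343401-61378345, strand -), stood at 453.7, 441.7 and 622.4 CPM in Ctrl and at 584.3, 701.2 and 621.9 CPM in PT-KO. After I/R it stood at 370.3, 269.4 and 347.1 CPM in Ctrl and at 251.6, 236.9 and 251.9 CPM in PT-KO. All injured libraries were below all uninjured ones, and PT-KO+I/R was below Ctrl+I/R without overlap. Slc47a1 fell 2.59-fold on I/R in PT-KO (log2 fold change -1.37 ± 0.10, adjusted p = 1.26e-06). The log2 fold change in Ctrl, -0.62 ± 0.20, did not pass (adjusted p = 0.0646). It passed at the same value in a fit to all 12 libraries (adjusted p = 0.0108) and by DESeq2 (adjusted p = 0.0147), without the filter on low counts (-0.60, adjusted p = 0.0498), and at -0.92 when the sex covariate was added to the fit of all 12 (adjusted p = 0.0109). The interaction was -0.74 ± 0.22 (adjusted p = 0.0229). It no longer passed without Ctrl library 1, Ctrl library 2, PT-KO library 2, Ctrl+I/R library 1 or PT-KO+I/R library 3 (from -0.72 to -0.65, adjusted p from 0.0527 to 0.0591) or with the sex covariate (-0.44, adjusted p = 0.167). After I/R, Slc47a1 was 1.34-fold lower in PT-KO than in Ctrl (adjusted p = 0.0419), which no longer passed without any 1 library (from -0.43 to -0.34 on the log2 scale, adjusted p from 0.0832 to 0.135), except Ctrl+I/R library 2. Uptake and exit carriers for cations were thus both lowered by I/R in PT-KO.

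Slc22a12, the urate exchanger (ENSMUSG00000061742, chr19:6535845-6543032, strand -), stood at 483.0, 341.8 and 972.7 CPM in Ctrl and at 1139, 1502 and 1076 CPM in PT-KO. After injury it stood at 787.1, 610.5 and 822.4 CPM in Ctrl and at 427.8, 483.5 and 396.7 CPM in PT-KO. PT-KO was above and PT-KO+I/R was below Ctrl+I/R without overlap, while Ctrl spanned both injured groups. Slc22a12 fell 2.85-fold on I/R in PT-KO (log2 fold change -1.51 ± 0.14, adjusted p = 7.56e-06). In Ctrl the log2 fold change was 0.31 ± 0.37 (adjusted p = 0.568), and it was -0.39 (adjusted p = 0.297) with the sex covariate. The interaction of -1.81 ± 0.43 (adjusted p = 0.00791) was called in all 12 fits without 1 library and, at -1.11 (adjusted p = 0.0289), with the sex covariate. After I/R, Slc22a12 was 1.71-fold lower in PT-KO than in Ctrl (log2 fold change -0.77 ± 0.16, adjusted p = 0.00563), which held without each library in turn. This call was lost in a fit to all 12 libraries (-0.76, adjusted p = 0.05) and with a replicate block (-0.78, adjusted p = 0.126). It was kept when the sex covariate was added to the fit of all 12 (-0.76, adjusted p = 0.00378). Its exons share 682 bases with Nrxn2 on the opposite strand, which had 34 to 370 counts per library. Whether the counting used strand is not stated.

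Slc22a4, the ergothioneine carrier (ENSMUSG00000020334, chr11:53983123-54028090, strand -), moved differently. It stood at 68.15, 75.45 and 64.13 CPM in Ctrl and at 71.3, 84.63 and 68.72 CPM in PT-KO. Its levels after I/R were 45.06, 40.59 and 41.71 CPM in Ctrl and 60.62, 55.69 and 65.52 CPM in PT-KO. Ctrl+I/R held the 3 lowest libraries, and PT-KO+I/R overlapped Ctrl. Slc22a4 fell 1.62-fold on I/R in Ctrl (log2 fold change -0.70 ± 0.10, adjusted p = 0.01), which held without each library in turn and, at -0.59 (adjusted p = 0.0229), with the sex covariate. In PT-KO it fell 1.24-fold (-0.31 ± 0.10, adjusted p = 0.0216), which no longer passed without PT-KO library 2 (-0.22, adjusted p = 0.0807) or PT-KO+I/R library 3 (-0.24, adjusted p = 0.0973). After I/R it was 1.42-fold higher in PT-KO than in Ctrl (0.51 ± 0.10, adjusted p = 0.00589). It was the only transporter of the 9 called higher there, although the interaction, 0.40 ± 0.15, did not pass (adjusted p = 0.0568). The interaction passed without Ctrl library 3 (0.45) or PT-KO library 2 (0.50).

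Slc22a18, a family member whose substrates are less well known and which lies in an imprinted cluster (ENSMUSG00000000154, chr7:143473736-143499334, strand +), stood at 319.0, 321.9 and 374.6 CPM in Ctrl and at 317.2, 401.6 and 335.3 CPM in PT-KO. After injury its values were 208.5, 110.7 and 197.0 CPM in Ctrl and 143.4, 115.6 and 125.8 CPM in PT-KO. Injured libraries were all below uninjured ones, and genotypes overlapped with and without injury. It fell 1.96-fold in Ctrl (log2 fold change -0.97 ± 0.24, adjusted p = 0.0349) and 2.75-fold in PT-KO (-1.46 ± 0.12, adjusted p = 3.14e-06). The fall in Ctrl no longer passed without Ctrl library 1 (-1.0), 2 (-0.99) or 3 (-0.88) or Ctrl+I/R library 1 (-1.14), with adjusted p from 0.0623 to 0.0968, and passed with the sex covariate (-1.12, adjusted p = 0.0232). The interaction was -0.48 ± 0.28 (adjusted p = 0.218), and -0.73 (adjusted p = 0.0095) without Ctrl+I/R library 2.

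Of the ATP-driven pumps, Abcc2 fell on I/R in PT-KO, whereas the calls of Abcc4 depended on the libraries and settings used. Abcc2 (ENSMUSG00000025194, chr19:43782192-43840740, strand +) stood at 418.0, 497.5 and 537.2 CPM in Ctrl and at 539.9, 613.9 and 579.4 CPM in PT-KO. After injury it stood at 420.5, 424.2 and 550.2 CPM in Ctrl and at 397.6, 433.2 and 450.2 CPM in PT-KO. Both injured groups overlapped Ctrl. Abcc2 fell 1.36-fold on I/R in PT-KO (log2 fold change -0.44 ± 0.09, adjusted p = 0.002), and the log2 fold change in Ctrl was -0.05 ± 0.17 (adjusted p = 0.841), or -0.21 (adjusted p = 0.462) with the sex covariate. The interaction of -0.38 ± 0.19 did not pass (adjusted p = 0.149), nor did it with the sex covariate (-0.23, adjusted p = 0.492).

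Abcc4 (ENSMUSG00000032849, chr14:118482692-118706219, strand -) stood at 85.35, 104.1 and 42.36 CPM in Ctrl and at 49.8, 38.9 and 58.05 CPM in PT-KO. Its values after I/R were 53.84, 52.74 and 44.87 CPM in Ctrl and 51.49, 62.49 and 68.04 CPM in PT-KO. Only the Xist-positive Ctrl libraries stood out, above all others. Abcc4 passed in none of the 5 comparisons as fitted by edgeR with all libraries, the filter on low counts and no replicate block. Its log2 fold change on I/R was 0.31 ± 0.15 in PT-KO (adjusted p = 0.0996) and -0.61 ± 0.29 in Ctrl (adjusted p = 0.17), the latter being 0.25 (adjusted p = 0.47) with the sex covariate. The interaction was 0.93 ± 0.37 (adjusted p = 0.0728), and 0.06 (adjusted p = 0.898) with the sex covariate. It passed in the interaction by DESeq2 (0.93, adjusted p = 0.0406) and without the filter (0.90, adjusted p = 0.0369), and without the filter also on I/R in PT-KO (0.32, adjusted p = 0.0453). With the replicate number as a block, which does not pair these libraries, it passed in Ctrl+I/R against Ctrl (-0.81, adjusted p = 0.0169), PT-KO+I/R against PT-KO (0.31, adjusted p = 0.0485), PT-KO against Ctrl (-1.10, adjusted p = 0.00385) and the interaction (1.24, adjusted p = 0.0173). Ctrl library 3 formed a block of its own, so in these fits the Xist-positive libraries alone stood for Ctrl. Without Ctrl library 3, Abcc4 passed in Ctrl (-0.89, adjusted p = 0.0181) and in the interaction (1.22, adjusted p = 0.00247). It passed on I/R in PT-KO without PT-KO library 4 (0.45) or PT-KO+I/R library 2 (0.42), and without the latter in injured PT-KO against injured Ctrl (0.38).

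**Figure D3:**
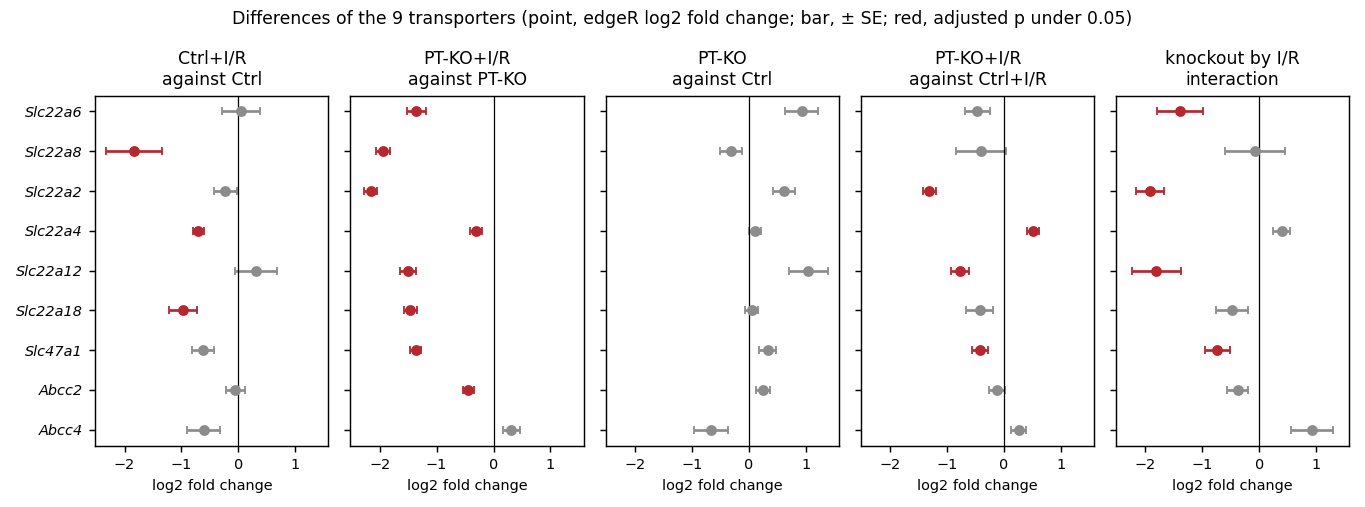
Log2 fold changes of the 9 transporters (points) with their SE (bars) in the 4 comparisons and the interaction, in red where the adjusted p was under 0.05. In PT-KO+I/R against PT-KO all but Abcc4 are red and lie left of 0, from -2.16 for Slc22a2 to -0.31 for Slc22a4.

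The differences within Ctrl touched each comparison with that group. Ctrl library 3 was above both Xist-positive Ctrl libraries for 6 of the 9 transporters and below both for Slc22a8, Slc22a4 and Abcc4. It was 2.36-fold above their mean for Slc22a12, 2.14-fold for Slc22a6 and 1.56-fold for Slc22a2, and it was 2.24-fold below their mean for Abcc4 and 1.67-fold for Slc22a8. Set beside PT-KO, Ctrl library 3 lay within the range of the 3 PT-KO libraries for Slc22a18, Slc47a1 and Abcc4 and below it for the other 6. Without Ctrl library 3, 6 transporters were called in PT-KO against Ctrl, where Slc22a6, Slc22a2, Slc22a12 and Slc47a1 were higher and Slc22a8 and Abcc4 lower. In that fit 6.99% of 15597 genes were called higher, 5.38% lower and 12.4% in all. With the sex covariate 0 transporters and 0 of all genes were called. In that comparison sex and genotype cannot be told apart except through Ctrl library 3. The comparisons of PT-KO+I/R with PT-KO and with Ctrl+I/R hold only libraries with Y-linked transcripts.

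Levels of the 9 were also ordered per exon length, as RPKM (CPM per kilobase of exon). Slc22a12 had the highest mean RPKM and Abcc4 the lowest in all 4 groups. Library by library, Abcc4 was lowest in all 12, and Slc22a12 was highest in all but Xist-positive Ctrl library 2, where it ranked 3 (151.1 RPKM) below Slc22a18 (189.4) and Slc22a8 (155.7). For Slc22a12 the mean RPKM was 264.8 ± 146.3 (SD, n = 3) in Ctrl, 547.7 ± 101.6 in PT-KO, 327.0 ± 50.18 in injured Ctrl and 192.7 ± 19.44 in injured PT-KO. In Ctrl, Slc22a12 was followed by Slc22a18, Slc47a1, Slc22a8, Slc22a6, Slc22a2, Abcc2 and Slc22a4. The steps from Slc22a12 to Slc22a18 and along Slc47a1, Slc22a8, Slc22a6 and Slc22a2 were smaller than the SD of the more variable neighbour, and the other steps were larger. By its mean, Slc22a8 held rank 4 in Ctrl, rank 6 in PT-KO and rank 7 in both injured groups. Within single Ctrl libraries it ranked 3 and 2 in the Xist-positive ones (150.1 and 155.7 RPKM) and 6 in Ctrl library 3 (91.75 RPKM). Slc22a6 held rank 2 in PT-KO and in both injured groups. Summed over the 9, CPM was 2931 to 4066 in Ctrl, 4350 to 5301 in PT-KO, 2141 to 2978 in injured Ctrl and 1858 to 2010 in injured PT-KO. The sum was lowest in PT-KO+I/R without overlap with the other groups.

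Other uptake carriers of organic ions, urate and dicarboxylates were read as a list of 25 genes, of which 23 were tested. In PT-KO+I/R against PT-KO, 17 were lower and 4 higher (median log2 fold change -1.28), beside 32.7% lower and 32.9% higher among all genes. In Ctrl+I/R against Ctrl, 9 were lower and 1 higher (median -0.60), beside 7.97% and 11.4%. In injured PT-KO against injured Ctrl, 6 were lower and 7 higher (median -0.33), counts near the shares of 24.4% and 22.5% among all genes. In Ctrl+I/R against Ctrl the called genes of largest change were Slc22a29 (log2 fold change -2.98 ± 0.76), Slc22a7 (OAT2, -2.35 ± 0.48), Slc22a13 (a urate and nicotinate carrier, -2.10 ± 0.44) and Slc22a19 (-1.97 ± 0.54), with adjusted p from 0.0215 to 0.0425. Of these, Slc22a7 alone passed with the sex covariate (-2.40, adjusted p = 0.0189). Slc22a29 stood at 82.0 and 80.1 CPM in the Xist-positive Ctrl libraries, 15.5 CPM in Ctrl library 3, 6.89 to 10.8 CPM in PT-KO and 2.35 to 13.9 CPM in Ctrl+I/R, and was -1.07 (adjusted p = 0.226) with the covariate. Slc22a13 was then -1.59 (adjusted p = 0.0862) and Slc22a19 -1.57 (adjusted p = 0.105). Over the list, 7 genes were lower and 0 higher with the covariate, beside 5.96% and 6.59% of all genes in that fit. Slc22a7 stood at 149 to 213 CPM in Ctrl and 15.2 to 64.8 CPM in Ctrl+I/R. The called genes of largest change in injured PT-KO against injured Ctrl were all lower, namely Slc22a29 (-4.68 ± 0.76), Slco4c1 (an organic anion carrier of the basolateral membrane, -3.12 ± 0.48), Slc13a3 (-2.77 ± 0.22) and Slc22a26 (-2.31 ± 0.64). Slc22a29 had at most 6 counts in a PT-KO+I/R library (0.178 to 0.387 CPM), so the size of its change and its place in this order are uncertain. Slc13a3, the basolateral dicarboxylate carrier that supplies the exchange substrate of Slc22a6 and Slc22a8, stood at 298 to 497 CPM in injured Ctrl and 48.1 to 68 CPM in injured PT-KO (adjusted p = 0.000201). Slc22a19, Slc22a26 and Slc22a29 are related family members that may share reads, which was not tested, so their split may be uncertain.

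Of 13 other efflux carriers tested, 6 rose and 4 fell on I/R in PT-KO (median log2 fold change 0.26), beside 32.9% and 32.7% of all genes. In Ctrl 0 rose and 2 fell (median -0.50), beside 11.4% and 7.97%. In injured PT-KO against injured Ctrl, 5 were higher and 3 lower (median -0.06), beside 22.5% and 24.4%. After I/R, Abcb1a (P-glycoprotein) was higher in PT-KO than in Ctrl, at 24.8 to 32.2 CPM against 8.4 to 15 CPM (log2 fold change 1.31 ± 0.21, adjusted p = 0.00229), and so was Slc17a4 (an organic anion carrier, 1.97 ± 0.43, adjusted p = 0.00718). Slc51a, the α chain of the basolateral organic solute carrier, was lower (-2.0 ± 0.39, adjusted p = 0.00489), as was Abcc6 (-1.35 ± 0.32, adjusted p = 0.00998). In Ctrl+I/R against Ctrl, Abcc6 (-1.15 ± 0.25, adjusted p = 0.0256) and Abcc10 (-0.59 ± 0.14, adjusted p = 0.0286) were lower, and with the sex covariate Abcc6 passed (-1.18, adjusted p = 0.0421) and Abcc10 did not (-0.42, adjusted p = 0.262).

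Of 13 transcription factors and scaffold proteins known to act on these carriers, 12 were tested in PT-KO+I/R against PT-KO, where 8 were lower and 1 higher, beside 32.7% and 32.9% of all genes. In Ctrl+I/R against Ctrl 13 were tested, of which 4 were lower and 0 higher, beside 7.97% and 11.4%. Pdzk1, a scaffold of brush border carriers, stood at 1530 to 1580 CPM in Ctrl, 1490 to 1600 in PT-KO, 580 to 1090 in injured Ctrl and 134 to 194 in injured PT-KO. It fell in Ctrl on I/R (log2 fold change -0.95 ± 0.24, adjusted p = 0.0374), which was -0.94 (adjusted p = 0.0507) with the sex covariate, and was lower again in injured PT-KO against injured Ctrl (-2.37 ± 0.27, adjusted p = 0.000543). In that comparison the estrogen receptor Esr1 was lower (-1.91 ± 0.28, adjusted p = 0.00156) and Ppara, a sensor of fatty acids, was higher (1.17 ± 0.25, adjusted p = 0.00675). Ppara and Slc9a3r2, a scaffold, fell in Ctrl on I/R by 0.83 and 0.48 on the log2 scale, with adjusted p of 0.0481 and 0.0406, and neither passed with the sex covariate (-0.73, adjusted p = 0.108, and -0.24, adjusted p = 0.487). In injured PT-KO against injured Ctrl, 5 of 12 factors and scaffolds were lower and 2 higher, beside 24.4% and 22.5% of all genes. In PT-KO against Ctrl, 0 genes of these 3 lists passed, as for all genes.

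**Figure D4:**
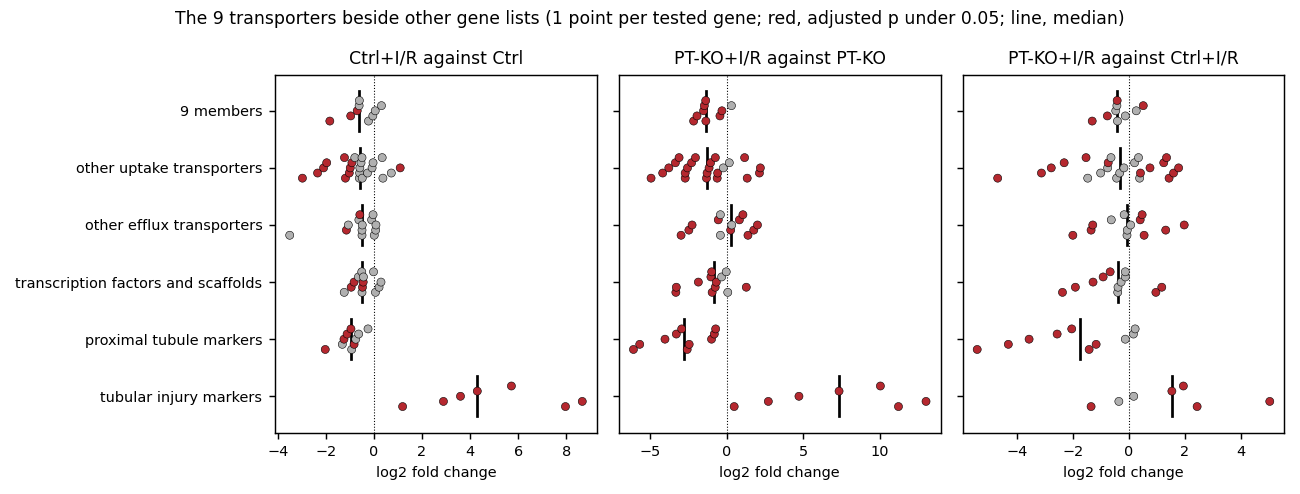
Log2 fold changes of each tested gene (points, red where the adjusted p was under 0.05) for the 9 transporters and 5 gene lists in 3 comparisons, with vertical bars for the medians. The proximal tubule markers lie further left in PT-KO+I/R against PT-KO (median -2.76) than in Ctrl+I/R against Ctrl (median -0.94), and the injury markers lie to the right in both.

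Markers of several cell types moved with the injury. Of the 10 proximal tubule markers, 10 were lower in PT-KO+I/R against PT-KO (median log2 fold change -2.76), 5 in Ctrl+I/R against Ctrl (median -0.94) and 7 in injured PT-KO against injured Ctrl (median -1.73), with 0 higher, beside 32.7%, 7.97% and 24.4% of all genes that were lower. Their summed level was 20700 to 23100 CPM in Ctrl, 20800 to 23800 in PT-KO, 7790 to 14600 in injured Ctrl and 5370 to 6060 in injured PT-KO. None was at 0 in a group. In whole cortex, fewer proximal tubule cells and less RNA per cell cannot be told apart. The summed level of 8 leukocyte markers was 33.4 to 35.7 CPM in Ctrl, 27.9 to 35 in PT-KO, 96.6 to 180 in injured Ctrl and 49 to 61 in injured PT-KO. These markers did not move together. In PT-KO+I/R against PT-KO, Cd68 (3.85), Itgam (4.02) and S100a8 (6.23) were higher on the log2 scale, and Adgre1 (-3.14), Lyz2 (-1.36) and Ptprc (-1.16) were lower. In injured PT-KO against injured Ctrl, Cd68 and S100a8 were higher and Adgre1, Lyz2 and Ptprc lower, whereas in Ctrl on I/R 6 of 8 were higher and 0 lower, beside 11.4% and 7.97% of all genes. The summed level of 7 tubular injury markers was 738 to 1900 CPM in the uninjured groups and 10600 to 27300 in the injured ones. Markers of the thick limb, distal tubule and collecting duct were lower for 3 of 8 in Ctrl and 7 of 8 in PT-KO, beside 7.97% and 32.7% of all genes. Of 6 endothelium and podocyte markers, 4 were lower in Ctrl on I/R, beside 7.97%. In PT-KO 2 of them were higher and 1 lower, beside 32.9% and 32.7% of all genes, with a median log2 fold change of 0.06. The part of these markers in the transporter results was not tested.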

How the data were processed

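Total RNA of kidney cortex was sequenced by the authors on an Illumina instrument. Per the submitters' processing notes, HISAT2 2.0.4 and mm10 were used, and the counting program and its use of strand are not given in the sources used here. The deposited values are read counts per Ensembl gene, neither normalized nor filtered, and 55227 of 55487 genes have a symbol in GENCODE M21. One column of the Ctrl group has a number that no sample title carries. It was used as Ctrl library 3 with no pairing.

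Counts were filtered with filterByExpr, scaled by TMM and compared by the quasi-likelihood test of edgeR 4.0.16 (R 4.3.3, limma 3.58.1) on the 6 libraries of each comparison, or on 12 for the interaction, with Benjamini-Hochberg adjustment over all genes tested and calls at an adjusted p under 0.05. Alternatives were DESeq2 1.42.0, total counts, no filter, a minimum of 10 counts per library, a joint fit of the 12 libraries, a replicate block, sex as a covariate and leaving out each library. For a single gene an exact permutation test of 3 against 3 libraries cannot go below p = 0.1. Tested on simulated data, edgeR found 95 to 100 of 100 genes changed by 2 on the log2 scale in each comparison. Of 100 genes changed by 1 it found 95 in PT-KO+I/R against PT-KO (15248 genes), 88 in PT-KO against Ctrl (15351), 69 in injured PT-KO against injured Ctrl (15350), 57 in Ctrl+I/R against Ctrl (15678) and 43 in the interaction (16085), with 6 to 27 false calls. Only these genes were changed, up and down equally, among well-counted genes, and all libraries shared the same mean profile. The simulation modelled neither the large share of changed genes nor the Xist split within Ctrl. Its rates therefore need not hold for these data.

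The 9 transporters, the gene lists and the alternatives were chosen with earlier results of these data known. Named in each list were the 4 called genes of largest log2 fold change in Ctrl+I/R against Ctrl and in injured PT-KO against injured Ctrl, with a mean of at least 20 counts. For each transporter the 2 genes most like it were those with the smallest root mean square difference of centred log2 CPM (prior count 2) over 12 libraries, among genes varying at least 0.5 times as much. Some genes that these rules name are not reported here. Same-numbered libraries did not deviate together (median r = -0.022 over 12 pairs), so the numbers were not used as pairs. Figures were drawn with matplotlib 3.10.9.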

Additional observations from a re-analysis of the deposited data

Results flagged for a closer look

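For 4 of the 9 transporters the change on I/R differed between PT-KO and Ctrl by the interaction test of edgeR over 12 libraries. The same test called 30.6% of 16168 genes, with 16.4% lower and 14.3% higher. The difference on the log2 scale was -1.92 for Slc22a2, -1.81 for Slc22a12, -1.39 for Slc22a6 and -0.74 for Slc47a1. The values of Slc22a2 and Slc22a12 were called in every fit without 1 library and with the sex covariate. Those of Slc22a6 and Slc47a1 were not called with the sex covariate, nor in 6 and 5, respectively, of the 12 fits without 1 library.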

How the results depend on the processing

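The Ctrl group, with 2 Xist-positive libraries of 3, limits every comparison that uses it, and 3 libraries per group limit all of them. Over the 9 transporters and 5 comparisons, 533 of 630 alternative values kept their direction and their side of the threshold, 39 passed newly, 34 no longer passed and 24 changed sign. In PT-KO+I/R against PT-KO, 7 to 9 transporters were called under every alternative. Without 1 library the number called was 1 to 3 in Ctrl+I/R against Ctrl (main value 3, and 1 without Ctrl library 1 or Ctrl library 2), 0 to 6 in PT-KO against Ctrl (0, and 6 without Ctrl library 3), 3 to 7 in injured PT-KO against injured Ctrl (4, and 7 without Ctrl+I/R library 2) and 2 to 6 in the interaction (4, and 2 without Ctrl library 1, Ctrl library 2 or PT-KO+I/R library 3). In PT-KO against Ctrl, DESeq2 called 1 (Slc22a2) and no low-count filter called 1 (Slc22a6). In the interaction, sex as a covariate left 2.

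With a replicate block the numbers called were 5 in Ctrl+I/R against Ctrl, 6 in PT-KO against Ctrl and 1 in injured PT-KO against injured Ctrl, where 23.2%, 9.01% and 11% of all genes were called in the same fits. Ctrl library 3 formed a block of its own, so the Xist-positive libraries alone stood for Ctrl in these fits. Sex and genotype or injury cannot be told apart there. The block turned Slc22a8 to 0.46 in injured PT-KO against injured Ctrl and to 0.52 in the interaction. Same-numbered libraries deviated little together from their group means, with correlations from -0.188 to 0.184, of which 1 of 12 was over 0.1. In Ctrl these deviations include the difference in Xist pattern.

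With sex as a covariate the log2 fold changes that turned were Slc22a6 -0.59, Slc22a12 -0.39 and Abcc4 0.25 in Ctrl+I/R against Ctrl, and Slc22a8 0.22, Slc22a18 -0.09 and Abcc4 0.21 in PT-KO against Ctrl. Total counts, which moved the median of all genes by 0.117 in Ctrl+I/R against Ctrl, -0.124 in PT-KO against Ctrl and -0.205 in injured PT-KO against injured Ctrl, turned Abcc2 to 0.07 in the first and Slc22a4 to -0.02 and Slc22a18 to -0.07 in the second. Without 1 library, Ctrl+I/R against Ctrl turned for Slc22a6 (-0.14 to 0.53), Slc22a2 (-0.35 to 0.03) and Abcc2 (-0.19 to 0.04), PT-KO against Ctrl for Slc22a18 (-0.05 to 0.13), injured PT-KO against injured Ctrl for Slc22a8 (-0.79 to 0.20) and Abcc2 (-0.21 to 0.01), and the interaction for Slc22a8 (-0.47 to 0.53). None of these turned values passed the threshold. The cause of these changes was not tested.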

Other observations

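The genes whose levels over the 12 libraries were most like those of a transporter were listed by the root mean square difference of log2 CPM, centred on each gene's mean, among 16168 genes. Closest to Slc22a2 were Myh14 (0.148) and Slc17a3 (0.166), a urate and organic anion carrier of the brush border. Close to Slc22a18 was Mdh1 (0.107), an enzyme of malate metabolism, and closest to Slc47a1 were Arl6ip1 (0.093) and Scp2 (0.102), a sterol carrier of peroxisomes. Slc22a12 was closest to Fbxo36 (0.202) and to Slc22a6 (0.236). Slc22a6 was closest to Fuca2 and Atrnl1 (0.213 each), and Slc22a8 to Cela1 (0.264) and Smim34 (0.268). For Slc22a4 these were D630045J12Rik and Rnf167 (0.114 each), for Abcc2 Tstd2 (0.087) and Psme4 (0.088), and for Abcc4 Arhgap28 (0.162) and Kdm6a (0.169). Among the 9 transporters themselves, Slc22a18 and Slc47a1 were the closest pair (0.211), while Slc22a8 and Slc22a12 were the farthest apart (1.111). These values describe 12 libraries that share groups, and carry no test.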
